A study of Mus musculus with 9 samples.

Results

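10 miRNAs used as markers of non-neuronal cells were read in cultures of mouse hippocampal neurons: mmu-miR-21, mmu-miR-22, mmu-miR-146a and mmu-miR-146b for astrocytes and activated glia, mmu-miR-338-3p and mmu-miR-219 for oligodendrocytes, and mmu-miR-142-3p, mmu-miR-142-5p, mmu-miR-223 and mmu-miR-155 for microglia and other immune cells. mmu-miR-146a also counts among the markers of immune cells. The 10 were chosen by the name on the array, without their star arms, from 650 miRNAs measured. They split evenly. miR-21, miR-22, miR-146b and miR-338-3p stood well above background on 9 of 9 arrays and miR-146a on 8. By contrast, miR-142-3p, miR-142-5p, miR-223, miR-155 and miR-219 did so on 0. Which cells gave the measured signals was not tested. Of the 5 measured members 0 passed the limma test with NMDA or bicuculline, where 8.29% and 0.621% of all miRNAs tested did, so that the count is near the share of all miRNAs.

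Neurons were prepared from C57BL/6 mice on postnatal day 1 and grown for 10 days. They were left untreated (control), treated with 20 µM NMDA for 4 h, or treated with 50 µM bicuculline for 4 h, with 3 one-colour Agilent arrays in each group. NMDA activates the NMDA receptor directly, including receptors outside synapses, and bicuculline blocks GABA-A receptors and so raises synaptic firing. For NMDA the study's methods describe a short exposure followed by washing, and its text also names a higher concentration than the labels do. All groups shared the strain and a growth medium with rat serum, which the methods describe as exchanged for a transfection medium before the treatments, and the replicates are described as independent cell preparations. The comparison of the groups asks whether synaptic activity and NMDA bath application act on different miRNAs. Because each array holds the RNA of a whole dish, fewer glial cells and less miRNA per glial cell cannot be told apart.

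A miRNA is a short RNA that guides Argonaute proteins to messenger RNAs, mainly through its seed, bases 2 to 8. miR-146a and miR-146b are induced through NF-κB and repress the adaptors IRAK1 and TRAF6, and miR-155 is induced by inflammatory signals in macrophages and microglia. The miR-142 arms are made in blood cells of nearly every lineage, microglia included, and miR-223 in myeloid cells. miR-219 and miR-338 promote the maturation of oligodendrocytes. miR-21 rises in reactive astrocytes and many injured tissues, and miR-22 is expressed widely, in neurons as well as in glia, so that neither is exclusive to glia.

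The sequences are shown because the seed separates the members' targets and because the nearly identical miR-146 pair limits what an array can separate. All 10 names matched a mature miRNA in RefSeq's tables, and capitals mark the seed.
mmu-miR-21: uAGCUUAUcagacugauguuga
mmu-miR-22: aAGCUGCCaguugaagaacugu
mmu-miR-146a: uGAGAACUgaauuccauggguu
mmu-miR-146b: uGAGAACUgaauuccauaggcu
mmu-miR-338-3p: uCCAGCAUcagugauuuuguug
mmu-miR-219: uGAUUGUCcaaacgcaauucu
mmu-miR-142-3p: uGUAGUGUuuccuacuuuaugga
mmu-miR-142-5p: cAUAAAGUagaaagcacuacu
mmu-miR-223: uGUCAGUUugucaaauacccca
mmu-miR-155: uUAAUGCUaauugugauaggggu
The 10 miRNAs carry 9 distinct seeds. Only miR-146a and miR-146b share one, GAGAACU, and over their 22 bases they differ by G18A and U21C, counted from 1 at the 5′ end with the base of miR-146a first. How far the probes of one also capture the other was not tested. Outside the members, miR-21c carries the seed of miR-21.

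The hairpins are placed here on GRCm38.p6, whereas the array design was annotated on mm9. Mir21a lies at chr11:86584067-86584158 on the minus strand, where the annotation also has the protein-coding gene Vmp1. Mir22 lies at chr11:75463716-75463810 on the plus strand within the long non-coding Mir22hg. Mir146, which gives miR-146a, is at chr11:43374397-43374461 on the minus strand with no other listed gene, and Mir146b is at chr19:46342762-46342870 on the plus strand in the long non-coding Gm36493. Mir338 is at chr11:120014765-120014862 on the minus strand within Aatk, a kinase gene of neurons. Both arms of miR-142 come from Mir142 at chr11:87756864-87756927 on the plus strand, whose locus also carries Mir142b. Mir155 is at chr16:84714140-84714204 in Mir155hg and Mir223 at chrX:96242817-96242926 in F630028O10Rik, both on the plus strand. miR-219 has 2 hairpins on the minus strand, Mir219a-1 at chr17:34024983-34025092 and Mir219a-2 at chr2:29845631-29845727, the second within Cercam. Thus 5 of the 10 hairpins lie on chromosome 11, where 83 of the 1005 miRNA hairpins in the table, 8.26%, lie.

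Signals are given as a percentage of each array's scale. On this scale 100 stands for the 75th percentile of an array, taken over the 265 probes well above background throughout. A miRNA was read from its brightest probe, and a probe counted as well above background where the scanner software marked at least 50% of its spots so. Since probes differ in how brightly they report a given amount of RNA, levels of different miRNAs are not ranked. Over all 650 miRNAs, 24% were well above background on all 9 arrays and 36.5% on at least 1.

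The arrays held the neuronal miRNAs that the label calls for. All 8 miRNAs of a neuronal list, among them miR-124, miR-9 and miR-128, were well above background on 9 of 9 arrays. In the comparisons below 0 of the 8 were called. Of all miRNAs tested 8.29% were called for NMDA against control, 0.621% for bicuculline against control and 8.84% for NMDA against bicuculline. The count is near those shares. None of 3 erythroid miRNAs and none of 6 miRNAs of muscle, heart and pancreas was above background on any array. The arrays lay on 2 slides. Slide 1 held control 1 and 2, NMDA 1 and 2 and bicuculline 1, and slide 2 held control 3, NMDA 3 and bicuculline 2 and 3. The lowest signal well above background ranged from 4.39% to 8.40% of scale over the arrays, and at least 162 miRNAs passed it on each array.

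miR-21, which is not exclusive to glia, read 215, 185 and 232% of scale on control arrays 1 to 3, 201, 190 and 213% on the NMDA arrays, and 196, 225 and 221.5% on the bicuculline arrays. The 3 groups overlapped, with means of 210.5% ± 23.9, 201% ± 11.8 and 214.02% ± 16 (SD, n = 3 each). Its second probe, at 87.5 to 109%, was also well above background on all 9 arrays.

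miR-22 read 378, 370 and 442% of scale in control, 357, 330 and 397% with NMDA, and 371, 481 and 490% with bicuculline. Bicuculline arrays 2 and 3, both on slide 2, were the brightest, and bicuculline array 1 lay inside the control range. The group means were 397% ± 39.5, 361% ± 33.9 and 447% ± 66.1 (SD, n = 3 each). Its spots agreed most closely of the 5 measured members, with a median coefficient of variation of 3.66% within an array, against 14.3% for miR-146a. The second probe of miR-22, at 154 to 202%, was also well above background on all 9 arrays.

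miR-146a, the NF-κB-induced miRNA, was close to the limit of the measurement. It read 10.9, 9.83 and 7.48% of scale in control, 11.6, 11.2 and 8.48% with NMDA, and 10.6, 10.7 and 6.60% with bicuculline. The lowest of these, bicuculline array 3, was not well above background. That value and the 7.48% of control array 3 lay under the floor of 7.94% and entered the fit at the floor. The means were 9.41% ± 1.76, 10.4% ± 1.70 and 9.31% ± 2.35 (SD, n = 3 each).

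miR-146b, which shares the seed and most other bases of miR-146a, read 19.0, 18.5 and 17.9% of scale in control, 16.9, 18.7 and 19.7% with NMDA, and 16.6, 18.4 and 18.4% with bicuculline. It was the steadiest of the 5 across control arrays, at 18.5% ± 0.544, against 18.4% ± 1.44 and 17.8% ± 1.05 in the treated groups (SD, n = 3 each). The second probe of neither miR-146 member was well above background on any array.

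miR-338-3p, linked to oligodendrocytes, read 32.3, 30.6 and 41.1% of scale in control, 39.7, 28.8 and 32.8% with NMDA, and 30.6, 34.8 and 34.5% with bicuculline. Its high arrays, control 3 and NMDA 1, lay in different groups and on different slides, and the means of 34.6% ± 5.64, 33.8% ± 5.53 and 33.3% ± 2.38 (SD, n = 3 each) were within the spread of any one group. The other oligodendrocyte miRNA, miR-219, was not well above background on any array, so the list of 2 was measured by 1 member. Mir338 lies in Aatk, and the part of neurons in the signal of miR-338-3p was not tested.

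**Figure D1:**
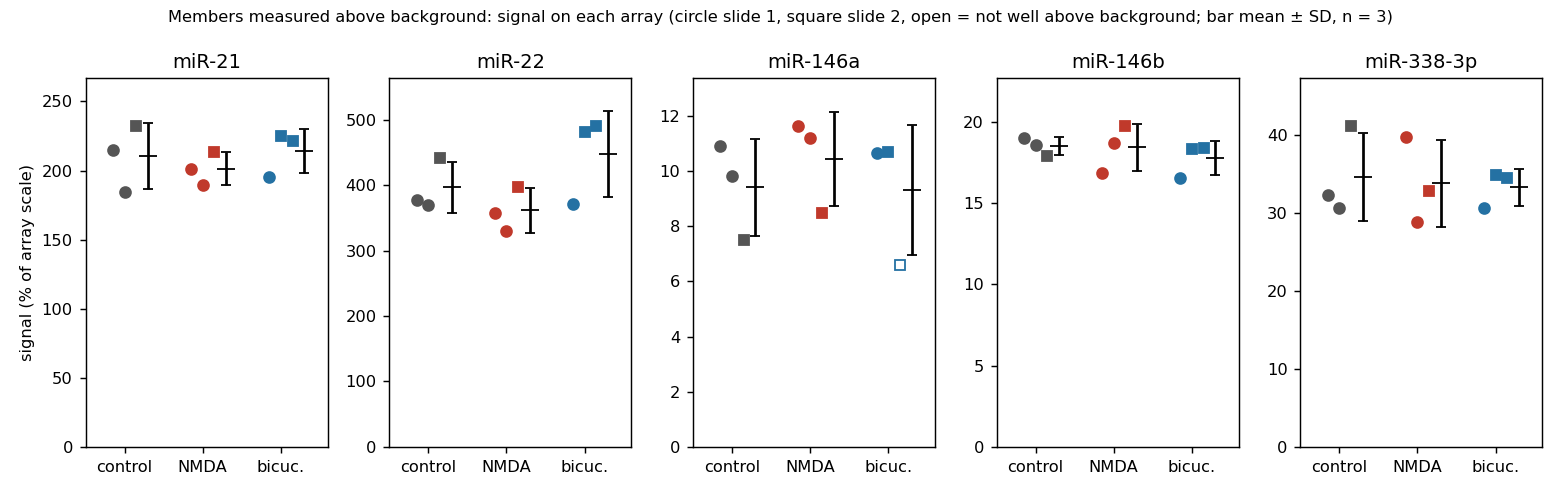
Signal in percent of the array's scale (vertical axis, from 0 in each panel) of the 5 members measured above background, by group. Points are single arrays (circles slide 1, squares slide 2, open symbol not well above background), bars are mean ± SD of 3 arrays; the groups overlap in every panel, and for miR-22 the 4 squares, from 397 to 490%, all lie above the 5 circles.

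The immune miRNAs other than miR-146a were not well above background on any array, so no level was read from them. miR-142-3p lay between -0.189 and 2.34% of scale over the 9 arrays, and miR-142-5p between -0.988 and 0.655%. Values below 0 arise because the scanner software subtracts background. The other probe of neither arm was well above background either. Neither arm of the blood-cell hairpin was thus called well above background in any of the 3 groups. Both arms lay above the mean of the negative control spots on some arrays and below it on others. On NMDA array 1 miR-142-3p read 1.94% against a mean of -0.352%, and on bicuculline array 3 it read -0.189% against 0.207%.

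miR-155 read 1.58, 2.12 and 0.900% of scale in control, 1.70, 2.36 and 1.28% with NMDA, and 2.09, 1.04 and 1.31% with bicuculline. The oligodendrocyte miR-219 read -0.0368, 0.950 and 1.11% in control, 2.05, 1.71 and 0.370% with NMDA, and -0.104, 0.171 and -0.729% with bicuculline. These values lay within the 95th percentile of the negative control spots of their own array, which ranged from 1.83 to 4.13% of scale. That percentile is of single spots, whereas a value here is a mean over a probe's spots. miR-155 lay above the mean of the negative control spots on every array, and miR-219 on some. The second probe of miR-155 read -1.46 to 2.01% and was well above background on 0 arrays.

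miR-223, the myeloid miRNA, stood out among the 5. It read 1.78, 1.91 and 3.46% of scale in control, 1.66, 1.07 and 2.55% with NMDA, and 1.98, 2.68 and 2.94% with bicuculline. It exceeded the 95th percentile of the negative control spots on 4 of 9 arrays, which are the 4 arrays of slide 2, and no other of the 45 values of these 5 miRNAs did. That percentile is of single spots, a wide bar for a probe's mean. It was 1.83 to 2.57% on slide 2 and 2.50 to 4.13% on slide 1. miR-223 lay above the mean of the negative control spots on every array. The second probe of miR-223, at 0.733 to 3.44%, was well above background on 0. The brighter probe ranged from 1.07 to 1.98% on slide 1 and from 2.55 to 3.46% on slide 2, whatever the treatment. Even there it reached at most 72.2% of the lowest signal called well above background on its array, and it was called on 0. In the table of values the authors processed, these 5 miRNAs lay between 6.87 and 7.30 on the log2 scale, where the arrays' medians were 7.06 to 7.08. There miR-146a lay between 7.27 and 7.47, which overlaps that range. Amounts below what these probes report were not detectable.

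**Figure D2:**
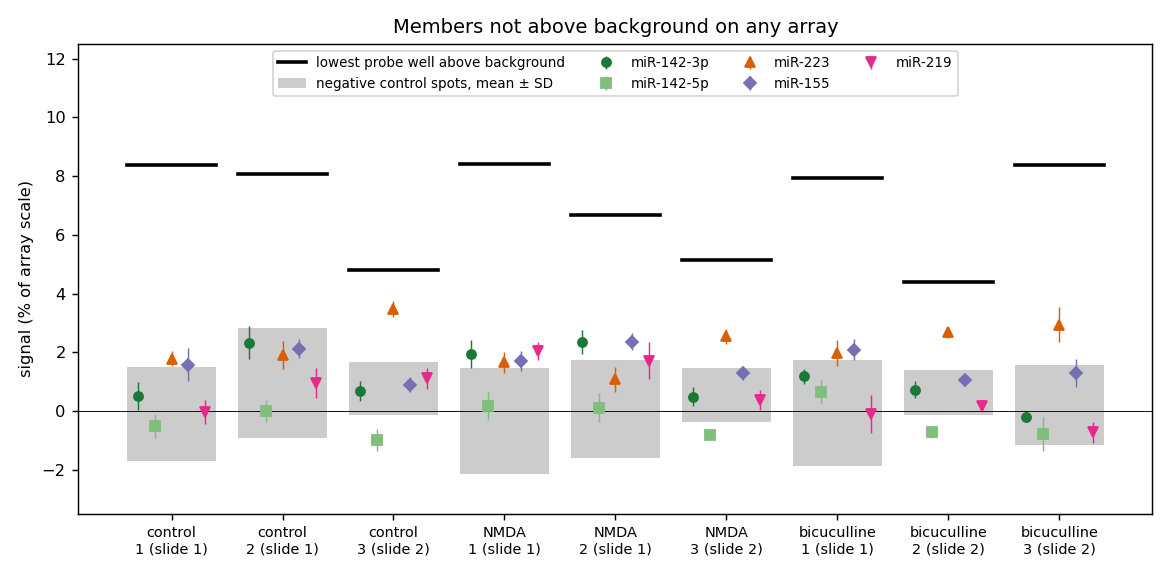
Signal in percent of the array's scale (vertical axis) of the 5 members not well above background, on each of the 9 arrays (horizontal axis), with the standard error over a probe's spots. Grey bands are the mean ± SD of the negative control spots and black lines the lowest probe well above background on that array; all points lie under the black lines, and miR-223 (orange) is highest on the slide 2 arrays, at 2.55 to 3.46%.

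NMDA was compared with control for the miRNAs well above background throughout at least 1 of the groups, which were the 5 measured members and 176 others. With limma and Benjamini-Hochberg adjustment 15 of them (8.29%) passed an adjusted p of 0.05, and 0 of the 5 members did, with 0 at an unadjusted p under 0.05. The groups did not overlap for 27 of these miRNAs (14.9%) and for 0 of the 5 members. miR-22 was -0.13 (SE 0.11, 95% interval -0.39 to 0.12) on the log2 scale, the most negative difference of the 5, and miR-146a was 0.12 (SE 0.16, -0.25 to 0.50), the most positive. miR-21 was at -0.059 (SE 0.11), miR-338-3p at -0.037 (SE 0.16) and miR-146b at -0.0079 (SE 0.087). The adjusted p-values were 0.991 to 0.993. The median difference of the 5 was -0.037, and that of all miRNAs tested was -0.011.

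In this comparison each slide held as many NMDA as control arrays. Blocked on slide, the difference of miR-22 was again -0.13, with an SE of 0.052, an unadjusted p of 0.0489 and an adjusted p of 0.285 by limma. It was -0.12 within slide 1 and -0.15 within slide 2. miR-146a was 0.14 within slide 1 and 0.096 within slide 2, with an adjusted p of 0.445 under the block. miR-338-3p had opposite signs on the slides, 0.11 and -0.32. With the replicate number as a block in its place, 2 of the 5 members had an unadjusted p under 0.05 by limma and 0 passed the adjustment, where 9.39% of all miRNAs tested did. They were miR-22, with NMDA below control in 3 of 3 pairs (adjusted p = 0.204), and miR-146a, with NMDA above control in 3 of 3 pairs (adjusted p = 0.238). Without control array 3 the difference of miR-22 was -0.053, without NMDA array 2 it was -0.070, and without NMDA array 3 it was -0.20. The interval of the unblocked fit leaves room, over the 5 members, for a level with NMDA between 0.758 and 1.41 times that of control.

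Bicuculline was compared with control for 161 miRNAs. One of them (0.621%) passed the limma test, and 0 of the 5 members did, with 0 at an unadjusted p under 0.05. The groups did not overlap for 5 miRNAs (3.11%) and for 0 members. miR-22 again had the difference furthest from 0, here 0.17 (SE 0.13, 95% interval -0.14 to 0.47) on the log2 scale. The other members lay between -0.060 for miR-146b and 0.028 for miR-21 and miR-146a, with miR-338-3p at -0.047, and all 5 had an adjusted p of 0.999. The median of the 5 was 0.028, and that of all 161 was -0.020. Bicuculline had 2 of its 3 arrays on slide 2 and control 1 of 3. Blocked on slide, miR-22 was 0.062 (SE 0.083), and it was -0.011 within slide 1 and 0.14 within slide 2. The block took miR-338-3p to -0.14 (SE 0.088), miR-146a to 0.13 (SE 0.13) and miR-146b to -0.074 (SE 0.088), all then further from 0 than miR-22. Leaving out single arrays gave 0.10 to 0.30 for miR-22, the lowest without bicuculline array 3 and the highest without bicuculline array 1, with 0.11 without bicuculline array 2. The widest intervals of the unblocked fit span 0.788 to 1.39 times the control level.

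NMDA was also compared directly with bicuculline, the contrast between bath application and synaptic activity. Of the 5 members and 176 other miRNAs tested, 16 (8.84%) passed the limma test and 0 of the 5 members did, with 0 at an unadjusted p under 0.05. The groups did not overlap for 24 miRNAs (13.3%) and for 0 members. miR-22 had a difference of -0.30 (SE 0.13, 95% interval -0.62 to 0.014) on the log2 scale, at an unadjusted p of 0.058 and an adjusted p of 0.423 by limma. Blocked on slide it was -0.20 (SE 0.074, adjusted p = 0.248), from -0.11 within slide 1 and -0.29 within slide 2. Leaving out single arrays gave -0.23 to -0.43, the latter without bicuculline array 1 (adjusted p = 0.0765). The remaining members were at -0.087 (miR-21), 0.0097 (miR-338-3p), 0.052 (miR-146b) and 0.095 (miR-146a), with a median of 0.0097 against 0.0018 over all miRNAs tested. This comparison shares its arrays with the comparisons against control. By its second probe miR-22 was at -0.075 for NMDA against control, 0.11 for bicuculline against control and -0.19 for NMDA against bicuculline. Each of these log2 differences was smaller in size than that of its brightest probe, and they were not tested.

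**Figure D3:**
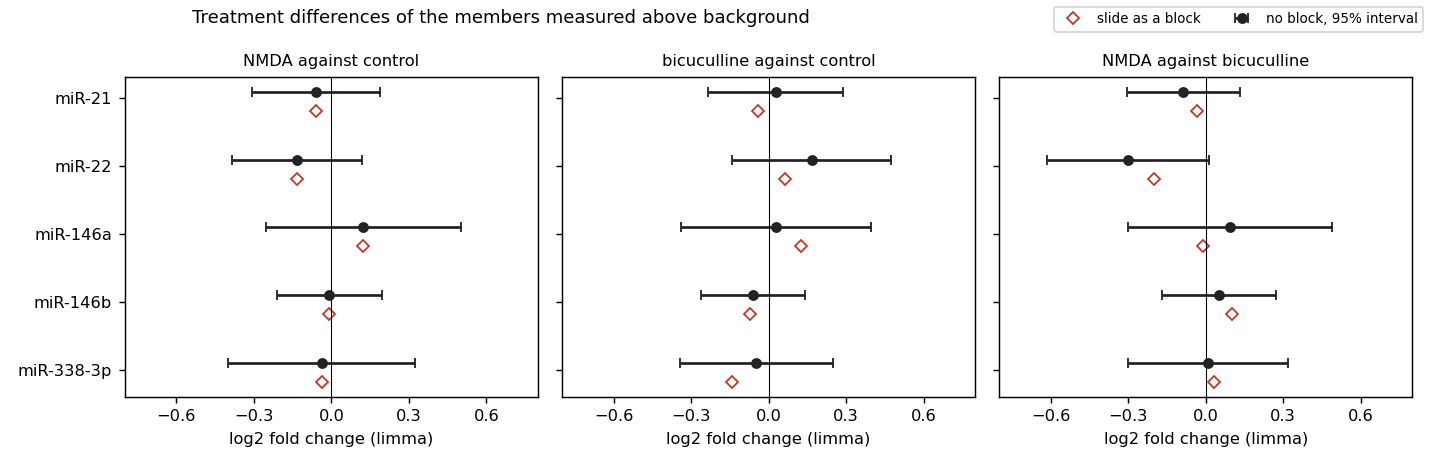
Log2 fold change (horizontal axis) of the 5 measured members in the 3 comparisons. Black points and bars are the limma estimates with 95% intervals and red diamonds the estimates with the slide as a block; every interval includes 0, and miR-22, NMDA against bicuculline, comes nearest to leaving it, at -0.62 to 0.014.

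The slide was also compared, since it crossed the groups. In a limma fit over all 9 arrays with treatment and slide as terms, a description added after the slides were seen, 41 miRNAs (22.7% of those tested) differed between slide 2 and slide 1, and 2 of the 5 members did. miR-22 was higher on slide 2 by 0.28 (SE 0.054, adjusted p = 0.012) on the log2 scale, and its 5 slide 1 values of 330 to 378% did not overlap its 4 slide 2 values of 397 to 490%. miR-146a was lower on slide 2, with -0.34 (SE 0.097, adjusted p = 0.042), although 2 of its slide 2 values stood at the floor. The differences of miR-21 (0.18, adjusted p = 0.067), miR-338-3p (0.17, adjusted p = 0.296) and miR-146b (0.078, adjusted p = 0.366) did not pass. The sign was the same within each of the 3 groups for miR-22, miR-21 and miR-146a. The slides also differ in software version, and slide and software cannot be told apart. Replicates 1 lay on slide 1 and replicates 3 on slide 2, whereas replicates 2 lay on both, so slide and replicate number coincide in part.

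**Figure D4:**
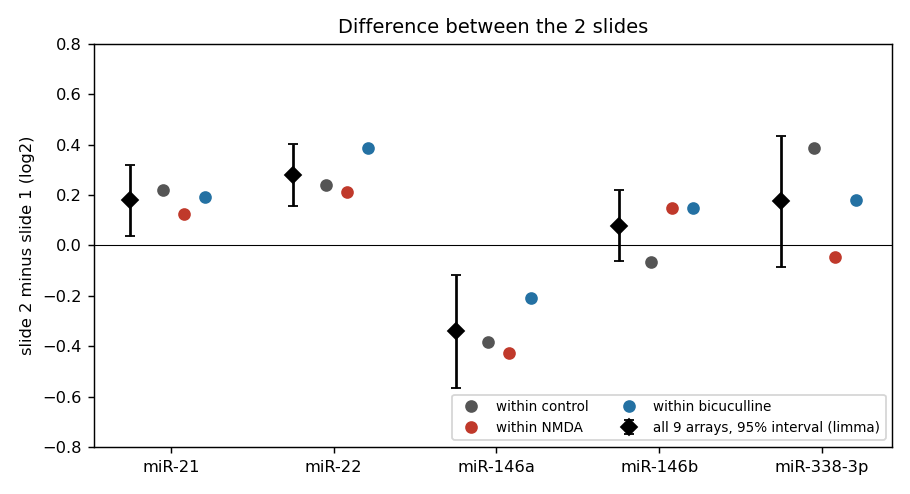
Difference of slide 2 minus slide 1 in log2 units (vertical axis) for the 5 measured members. Diamonds are the limma estimate over all 9 arrays with its 95% interval and circles the difference within each group; miR-22 lies above 0 and miR-146a below 0 in all 3 groups.

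Over the 9 arrays, given as a description since arrays share slides, the log2 levels of miR-21 and miR-22 moved together with a Pearson correlation of 0.816. miR-146a and miR-146b did not (-0.334), and miR-146a lay at the floor on control array 3 and bicuculline array 3. Slide means were not removed from either of these correlations. Among 152 other miRNAs well above background on all arrays, the one most like miR-21 was miR-185 (correlation 0.883, and 0.751 after each slide's mean was removed), and for miR-22 it was miR-652 (0.880, falling to 0.368). For miR-146b it was miR-26b (0.853, and 0.836 without the slide means) and for miR-338-3p it was miR-301a (0.788, and 0.744). The correlation of miR-22 with its nearest neighbour was the one of the 4 that fell most without the slide means. Each neighbour was picked as the highest of 152 with slide means left in. High values, and some fall once the means are removed, come partly with that choice.

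Of the opposite arms of the members' hairpins, 4 are on the array. miR-22*, the other arm of Mir22, was well above background on 4 of 9 arrays, with signals of 5.54 to 8.26% of scale, and was not tested because no group had all 3 arrays above background. miR-21*, miR-146b* and miR-338-5p were above background on 0 arrays, although their partner arms were so on all 9.

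Beyond the members, 32 miRNAs linked to astrocytes, oligodendrocytes or immune cells were listed, many of them also expressed in neurons. They include the members' opposite arms described above and a miRNA that is also on the neuronal list. Of the 30 on the array, 16 were well above background on all 9 arrays, 5 on some and 9 on none. None of the 17, 16 and 17 tested passed limma in the 3 comparisons, against 8.29%, 0.621% and 8.84% of all miRNAs tested. In each comparison 16 of those tested had passed the background mark on every array. A fit limited to such miRNAs, 156 in number, called 1.92%, 0% and 1.92%. The count of 0 is near these closer shares. Of 17 tested for NMDA against control the median log2 difference was 0.0028, with 0 at an unadjusted p under 0.05 and a smallest adjusted p of 0.549. Of 16 tested for bicuculline against control the median was -0.014, with 0 at an unadjusted p under 0.05. Of 17 tested for NMDA against bicuculline it was -0.0071, with 1 at an unadjusted p under 0.05 and a smallest adjusted p of 0.290.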

How the data were processed

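The authors deposited the scanner output of 9 arrays, spot intensity values that Agilent Feature Extraction (10.7.1.1 on slide 1, 10.7.3.1 on slide 2) had background-subtracted and detrended, with no scaling across arrays. They also deposited processed log2 values, whose centring is unknown. The processed table followed the log2 scanner values with a correlation of 0.962 to 0.964 and a slope of 0.557 to 0.616, so its differences are compressed. An aligner does not apply, and the normalization behind the table is not given in the sources used here.

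Control spots and 3320 flagged spots were left out, and 0 spots were saturated. Spots of a probe were averaged, divided by the array's scale, set to a floor of 7.94% of it (the arrays' median for the dimmest probe well above background) and put on the log2 scale, with each miRNA read from its brightest probe. The groups compared were fitted with limma (3.58.1, R 4.3.3), two-sided and without covariates, with Benjamini-Hochberg adjustment over all miRNAs tested and a threshold of 0.05. The number of arrays, 3 a group, limits the precision. On simulated data with 20 miRNAs changed by 1 log2 unit 100% were recovered by this step, run on the miRNAs of each comparison. False calls made up 4.31% for NMDA against control (5 members and 176 others), 2.68% for bicuculline against control (161 miRNAs) and 3.61% for NMDA against bicuculline (5 members and 176 others). The simulation gave all miRNAs a common SD, 0.126, 0.137 and 0.144 in that order, with no slide difference and no floor. The SDs of miR-146a within a group were 0.234 to 0.248. Smaller changes were not simulated, so the recovery does not give the power for differences of the members' size.

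The members and lists were chosen with earlier results of these data known. Outside the members, opposite arms and the miRNA most correlated with each member on all 9 arrays were named. Whether replicate numbers pair arrays was checked from deviations from the group means over 156 miRNAs. The correlations were 0.36, 0.76 and 0.63 for NMDA and control, 0.59, 0.085 and 0.72 for bicuculline and control, and 0.62, -0.025 and 0.72 for NMDA and bicuculline. Pairs on the same slide correlated at 0.36 to 0.76. The replicate 2 pairs with bicuculline, on different slides, stood at 0.085 and -0.025. The check therefore cannot tell pairing by number from a shared slide. Alternatives were other scalings, summaries, floors, filters and fits, the authors' table, normexp background correction (offset 50, on the median spot signal), the methods' t-test, slide and replicate blocks, and leaving out each array. Sequences and places come from RefSeq tables of GRCm38.p6.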

Additional observations from a re-analysis of the deposited data

How the results depend on the processing

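With 3 arrays a group and signals of miR-146a near the floor, small differences could not be resolved. Under 56 of 57 alternatives over the 3 comparisons 0 members were called, their lowest adjusted p being 0.0584. The exception was NMDA against bicuculline with the scale taken over all probes. It called 4 of 5 members, 12 of 17 other glial and immune miRNAs and, near these shares, 79% of all miRNAs. This scaling moved the median of all miRNAs by -0.48, to -0.47, and by -0.42 for NMDA against control. In it miR-22 was -0.78, miR-21 -0.57, miR-338-3p -0.47, miR-146b -0.43 and miR-146a -0.23, which relative to that median are -0.30, -0.091, 0.0053, 0.047 and 0.24. Quantile normalization moved the median by -0.13 for each NMDA comparison, and the total gene signal by 0.15 for bicuculline against control. Over all miRNAs, NMDA against control gave 15 higher and 0 lower calls, against 14 and 4 with all probes, 13 and 11 with quantile normalization, 5 and 0 with the total gene signal, 3 and 0 with only miRNAs above background on all 9 arrays, and 5 and 0 with no filter. NMDA against bicuculline gave 15 and 1, against 16 and 127, 14 and 13, 6 and 1, 3 and 0, and 8 and 0 in that order, and 9 and 1 with the methods' t-test. Bicuculline against control gave 0 to 2 calls.

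Of 279 recomputed log2 differences of single members, 39 changed sign, 238 kept sign and side of the threshold, and 2 kept sign and passed it. The 4 called above passed it. miR-21 and miR-22 kept their sign, miR-146b and miR-338-3p changed it. The cause of the changes was not tested. For NMDA against control, miR-146a turned to -0.21 with all probes as the scale, -0.16 with quantile normalization and -0.017 in the authors' table. For bicuculline against control, miR-146a turned to -0.032 with the lower floor and miR-146b to 0.015 with normexp. There miR-21 turned to -0.050 with quantile normalization, -0.030 in the authors' table and -0.040 with the slide as a block, and miR-338-3p to 0.0083 with all probes and 0.14 with the total gene signal. For NMDA against bicuculline, miR-146a turned to -0.18 with quantile normalization, -0.030 in the authors' table and -0.011 with the slide as a block. miR-146b turned to -0.20, -0.033 and -0.033 with quantile normalization, the authors' table and normexp. miR-338-3p turned to -0.22, -0.14, -0.080 and -0.053 with quantile normalization, the total gene signal, the authors' table and normexp. With the mean of all probes every array of miR-146a lay at the floor, so no difference was computed.

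Leaving out single arrays gave, for NMDA against control, -0.0046 to 0.27 for miR-146a, -0.058 to 0.054 for miR-146b, -0.15 to 0.014 for miR-21 and -0.16 to 0.092 for miR-338-3p. For bicuculline against control it gave -0.10 to 0.17 for miR-146a, -0.063 to 0.10 for miR-21 and -0.13 to 0.082 for miR-338-3p, and for NMDA against bicuculline -0.047 to 0.24 for miR-146a and -0.11 to 0.12 for miR-338-3p. Each array but NMDA 3 turned the sign of at least 1 of these differences, control 3 of 5, and no call followed.

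With the replicate block, 0 members were called in any comparison, where 9.39%, 1.24% and 9.39% of all miRNAs were. The lowest adjusted p by limma was 0.204 for NMDA against control (miR-22), where arrays of the same number shared a slide, and 0.114 for NMDA against bicuculline (miR-22). The methods' t-test called 0 members in every comparison.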
